A study of Mus musculus with 3 samples.

Results

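Expression of 8 genes of death-receptor and necroptosis signaling was examined in RAW 264.7 cells, a mouse macrophage cell line. These were *Casp8*, *Cflar*, *Ripk1*, *Ripk3*, *Mlkl*, *Birc2*, *Birc3* and *Xiap*. The probes were taken by gene name, for genes picked with earlier results of these data known, and together they are 20 of the 56605 gene probes on the array, for 8 of the 26840 genes with a symbol. RNA was measured on 1-colour Agilent mouse microarrays with 60-base probes, 1 array for each of 3 conditions. All 3 cultures received lipopolysaccharide (LPS), the agonist of Toll-like receptor 4 (TLR4), at 50 ng/mL, so that no condition here is free of LPS. The LPS culture received LPS alone. The CRL1505 + LPS and CRL1506 + LPS cultures were first exposed for 24 h to 50000000 cells/mL of *Lacticaseibacillus rhamnosus* CRL1505 or *Lactiplantibacillus plantarum* CRL1506, and the bacteria were washed away before LPS. The sources differ on the time under LPS, which the study's methods give as 12 h and the sample descriptions as 3 h. Arrays of cells without LPS were not analysed here.

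When tumor necrosis factor (TNF) or another death ligand binds its receptor, or when TLR4 signals through its adapter TRIF, the kinase RIPK1 is drawn into complexes that can end in survival or in death. Ubiquitin ligases of the IAP family, cIAP1 (*Birc2*) and cIAP2 (*Birc3*), mark RIPK1 with ubiquitin and keep the complex on the survival path, while XIAP (*Xiap*) also binds and blocks caspases. Caspase-8 (*Casp8*) starts apoptosis and cuts RIPK1 and RIPK3, and its catalytically inactive relative cFLIP (*Cflar*) restrains it. Where caspase-8 is inactive, RIPK3 phosphorylates MLKL, which then permeabilizes the plasma membrane in the form of death called necroptosis. Macrophages are known for engaging either outcome after TLR4 stimulation. The arrays measure RNA, and the proteins, their cleavage or phosphorylation and cell death are outside these data.

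The probes that carry the ratios described here are shown 5′ to 3′ as the array files give them, with their position in mouse build mm9. The probes of *Casp8* (chr1:58901601-58901660, plus strand), of *Birc2* (chr9:7818688-7818747, minus strand) and of *Birc3* (chr9:7854409-7854468, minus strand) are given whole, together with a second *Birc3* probe (chr9:7856162-7856221, minus strand) whose ratio differed from the first. For the others the first 30 bases are given.
Casp8: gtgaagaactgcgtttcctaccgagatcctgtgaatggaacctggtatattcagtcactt
Birc2: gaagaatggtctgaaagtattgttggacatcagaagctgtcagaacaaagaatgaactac
Birc3: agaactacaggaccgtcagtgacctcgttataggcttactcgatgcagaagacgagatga
Birc3, second probe: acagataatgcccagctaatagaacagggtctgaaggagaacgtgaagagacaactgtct
Mlkl: cggttgaagaatccacggacaagaaggtgt
Ripk3: tgaagtgtgccattcagcgtggcaataaaa
Ripk1: ttgagcatccaatgctgtactgtcacctta
Cflar: gcttgctgagattctaggcataattgctct
Xiap: cgtttatggaaactcctttatggaattgct
The *Mlkl* probe lies at chr8:113835897-113835956 (minus strand), the *Ripk3* probe at chr14:56403949-56404008 (minus strand) and the *Ripk1* probe at chr13:34125152-34125211 (plus strand). The *Cflar* probe lies at chr1:58815653-58815712 and the *Xiap* probe at chrX:39462720-39462779, both on the plus strand. *Cflar* and *Casp8* are neighbours on chromosome 1, and *Birc2* and *Birc3* are paralogs side by side on chromosome 9. The longest run of bases that probes of different members had in common was 9, and it was 8 between *Birc2* and *Birc3*.

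Values are the processed fluorescence signal of a probe, and levels are log2 of that signal relative to the 75th percentile of its array, so that 0 is the 75th percentile. That percentile was a signal of 743 with LPS, 517 with CRL1505 + LPS and 698 with CRL1506 + LPS, so that equal raw signals stand for a higher level on the CRL1505 + LPS array. A gene is represented by its brightest probe. Probes printed several times on an array gave log2 ratios with a median SD of 0.05 for CRL1505 + LPS against LPS and 0.04 for CRL1506 + LPS against LPS, which covers the printing and scanning of 1 RNA and not the spread between cultures. With 1 array for each condition there is no test, and a difference counts as called where it is at least 2-fold. One slide held both the CRL1506 + LPS array and the LPS array, in 1 scan. A second slide, with a separate scan, held that of CRL1505 + LPS. The CRL1505 strain therefore cannot be told apart from its slide and scan. Both comparisons use the same LPS array. All 9 macrophage markers examined were well above background on each array, and they moved in both directions. *Csf1r* had signals of 120050, 30195 and 61675 with LPS, CRL1505 + LPS and CRL1506 + LPS, while *Adgre1* had 4544, 15264 and 8555 and *Fcgr1* had 4727, 17366 and 8563. Of the markers of other cells, 2, 2 and 3 of 4 T cell markers, 1 of 3 B cell markers on each array, 1, 0 and 1 of 4 epithelial markers and 0, 1 and 3 of 4 fibroblast markers were well above background on the same arrays. *Cd3e*, the brightest of these, had signals of 869, 540 and 837, and the part of such markers in the results was not tested. In RNA of a whole culture, fewer cells expressing a gene and less RNA per cell cannot be told apart.

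In macrophages treated with CRL1505 + LPS, 2 of the 8 genes reached 2-fold above LPS alone, *Mlkl* and *Xiap*, and none was 2-fold lower. Over all 15603 genes compared, 9.93% reached 2-fold above LPS and 8.41% reached 2-fold below it. In total 7 of the 8 genes lay above the LPS value, against 50.7% of all genes, and the median of their log2 ratios was 0.70 against 0.01 over all genes. With CRL1506 + LPS no member reached 2-fold in either direction, where 5.67% of 16279 genes reached 2-fold above LPS and 3.53% reached 2-fold below it. In that comparison 3 of the 8 genes lay above the LPS value, against 42.7% of all genes, and the members' median log2 ratio was -0.08 against -0.06 over all genes.

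**Figure D1:**
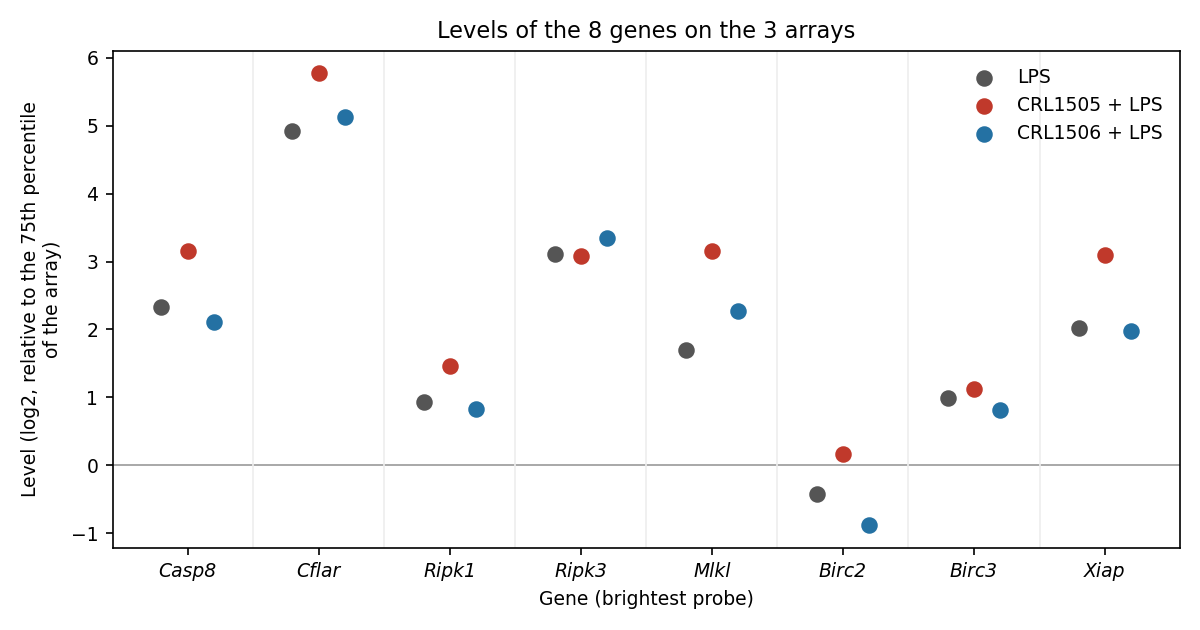
The vertical axis gives the level of each gene's brightest probe in log2 units relative to the 75th percentile of the array, for 1 array of each condition (grey LPS, red CRL1505 + LPS, blue CRL1506 + LPS). *Mlkl* lay at 1.69, 3.16 and 2.27 and *Ripk3* at 3.11, 3.09 and 3.35 on the 3 arrays, and levels of different genes come from different probes and are not to be compared.

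*Mlkl*, the executioner of necroptosis, had the largest difference from LPS of the 8 genes with CRL1505. Its signal was 2399 with LPS, 4623 with CRL1505 + LPS and 3357 with CRL1506 + LPS, and its level was 1.69, 3.16 and 2.27. The level with CRL1505 + LPS was thus the highest of the 3 and that with LPS alone the lowest. The log2 ratio to LPS was 1.47 with CRL1505, a 2.77-fold difference, and 0.57 with CRL1506, a 1.49-fold difference. Under 7 other normalizations the first ratio ran from 0.92 to 1.77 and was past 2-fold in 6 of them, and the second ran from 0.37 to 0.65. With CRL1506 it was also the largest of the 8 with the 75th percentile, but *Birc2* was farther from LPS with a median shift, at -0.67 against 0.37, and with spike-ins, at -0.57 against 0.47, and *Birc3* was with the mean over probes, at 0.75 against 0.57. *Mlkl* has 1 probe, so that no second probe could be set beside it.

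*Ripk3*, the kinase directly upstream of MLKL, did not follow it. Its signal was 6437 with LPS, 4400 with CRL1505 + LPS and 7108 with CRL1506 + LPS, and its level was 3.11, 3.09 and 3.35. The log2 ratio to LPS was -0.03 with CRL1505, with a range from -0.58 to 0.27 over the other normalizations that includes 0, and 0.23 with CRL1506, with a range from 0.03 to 0.33. *Ripk3* was the member that lay lowest relative to LPS in the CRL1505 comparison and the only one with a lower level on the CRL1505 + LPS than on the CRL1506 + LPS array, at a log2 difference of -0.26. That sign turned under 1 of the 7 other normalizations, where the difference was 0.24.

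*Ripk1*, the kinase at which the survival and death paths part, had signals of 1419 with LPS, 1420 with CRL1505 + LPS and 1237 with CRL1506 + LPS. Its levels were 0.93, 1.46 and 0.83. The raw signals with LPS and CRL1505 + LPS were nearly equal, and the log2 ratio of 0.52 with CRL1505 came from the different 75th percentiles of the arrays. It ran from -0.03 to 0.82 over the other normalizations. A second *Ripk1* probe for the same RefSeq transcript, at chr13:34126830-34126889, had levels of -0.26, -0.16 and -0.24 and log2 ratios of 0.10 with CRL1505 and 0.02 with CRL1506. With CRL1506 the first probe had a log2 ratio of -0.11. The last *Ripk1* probe, for an Ensembl transcript, was not well above background with LPS (signal 32.1), was marked as an outlier spot with CRL1505 + LPS and had a signal of 48.6 with CRL1506 + LPS. Neither *Ripk1* nor *Ripk3* reached 2-fold with either strain under any of the 7 other normalizations.

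*Casp8*, the initiator caspase of death receptors, had signals of 3757 with LPS, 4588 with CRL1505 + LPS and 3013 with CRL1506 + LPS. Its levels were 2.34, 3.15 and 2.11, with CRL1505 + LPS above and CRL1506 + LPS slightly below LPS alone. The log2 ratios were 0.81, a 1.76-fold difference, and -0.23. Over the other normalizations they ran from 0.26 to 1.11 and from -0.43 to -0.13, so that the signs did not turn in any of the 7. *Casp8* has 1 probe.

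*Cflar*, whose protein cFLIP holds caspase-8 in check, is measured by 5 probes. The brightest, near the 3′ end, had signals of 22627 with LPS, 28278 with CRL1505 + LPS and 24455 with CRL1506 + LPS, and levels of 4.93, 5.77 and 5.13. Its log2 ratios were 0.85 with CRL1505 and 0.20 with CRL1506, and ran from 0.29 to 1.14 and from 0.00 to 0.33 over the other normalizations. The other probes spread widely for CRL1505. A probe for the RefSeq transcript variant NM_009805, at chr1:58789994-58790053, had levels of 1.94, 3.43 and 2.08 and a log2 ratio of 1.49, while one for an Ensembl transcript at chr1:58770546-58770605, the most 5′ of the 5, had levels of 0.44, 0.49 and 0.72 and a log2 ratio of 0.06. On the LPS array, 6 of the 20 spots nearest to the NM_009805 probe had uneven pixels (a mean over 0.2 log2 above the median), and their part in its ratio was not tested. The 2 remaining probes had levels of 2.74, 3.43 and 3.04 (chr1:58811116-58811175) and of 0.63, 1.37 and 1.27 (chr1:58783552-58788030, across a splice junction), and log2 ratios of 0.69 and 0.74. With CRL1506 all 5 probes lay above LPS, at log2 ratios from 0.14 to 0.65. By their brightest probes the caspase-8 gene and its inhibitor stood at log2 ratios of 0.81 and 0.85 with CRL1505, on single arrays. The 5 *Cflar* probes ran from 0.06 to 1.49, so that a likeness of the genes depends on the probe used.

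*Xiap*, the inhibitor of caspases, had signals of 3027 with LPS, 4416 with CRL1505 + LPS and 2756 with CRL1506 + LPS on its brightest probe, and levels of 2.03, 3.09 and 1.98. The level with CRL1505 + LPS stood apart, and the other two were close together. The log2 ratios were 1.07 with CRL1505 and -0.04 with CRL1506. The first lay just past the 2-fold line, ran from 0.52 to 1.36 over the other normalizations and was past 2-fold in 2 of the 7. A dimmer probe for RefSeq transcript NM_009688 at chrX:39458363-39458422 had levels of -2.05, -1.54 and -2.02 and log2 ratios of 0.51 and 0.03. The raw signals of this dimmer probe were nearly equal, at 179.6 with LPS and 178.2 with CRL1505 + LPS. Its ratio of 0.51 therefore came from the scaling of the arrays. Of the RefSeq probes, only the brightest had a clearly higher raw signal with CRL1505 + LPS than with LPS. The mean over the gene's 3 probes did not reach 2-fold.

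*Birc2*, encoding cIAP1, had signals of 556 with LPS, 580 with CRL1505 + LPS and 378 with CRL1506 + LPS. Its levels were -0.42, 0.17 and -0.88. The log2 ratios were 0.58 with CRL1505 and -0.47 with CRL1506, in opposite directions, and ran from 0.03 to 0.88 and from -0.67 to -0.41 over the other normalizations. An Ensembl probe of *Birc2* near the 5′ end was well above background with LPS only, at signals of 44.2, 18.9 and 13.2 on the 3 arrays, and gave no 2-fold bound.

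*Birc3*, encoding cIAP2 and a known target of NF-kappaB, had signals of 1482 with LPS, 1126 with CRL1505 + LPS and 1232 with CRL1506 + LPS on its brightest probe, and levels of 0.996, 1.12 and 0.82. The log2 ratios were 0.13 with CRL1505, from -0.42 to 0.42 over the other normalizations, and -0.18 with CRL1506, from -0.38 to -0.10. The 3 other *Birc3* probes, all designed on Ensembl transcripts and dimmer, went the other way with CRL1506. The second probe shown above had levels of -1.77 with LPS, -1.82 with CRL1505 + LPS and -0.65 with CRL1506 + LPS, and a log2 ratio of 1.12 with CRL1506. The probes at chr9:7866193-7866252 and chr9:7868669-7868728 had levels of -2.23, -2.10 and -0.92 and of -1.95, -1.52 and -1.19 with LPS, CRL1505 + LPS and CRL1506 + LPS. Their log2 ratios were 1.31 and 0.76 with CRL1506 and 0.13 and 0.43 with CRL1505. The mean over the 4 probes put *Birc3* at 0.75 with CRL1506, so that its sign there depended on the probes used.

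**Figure D2:**
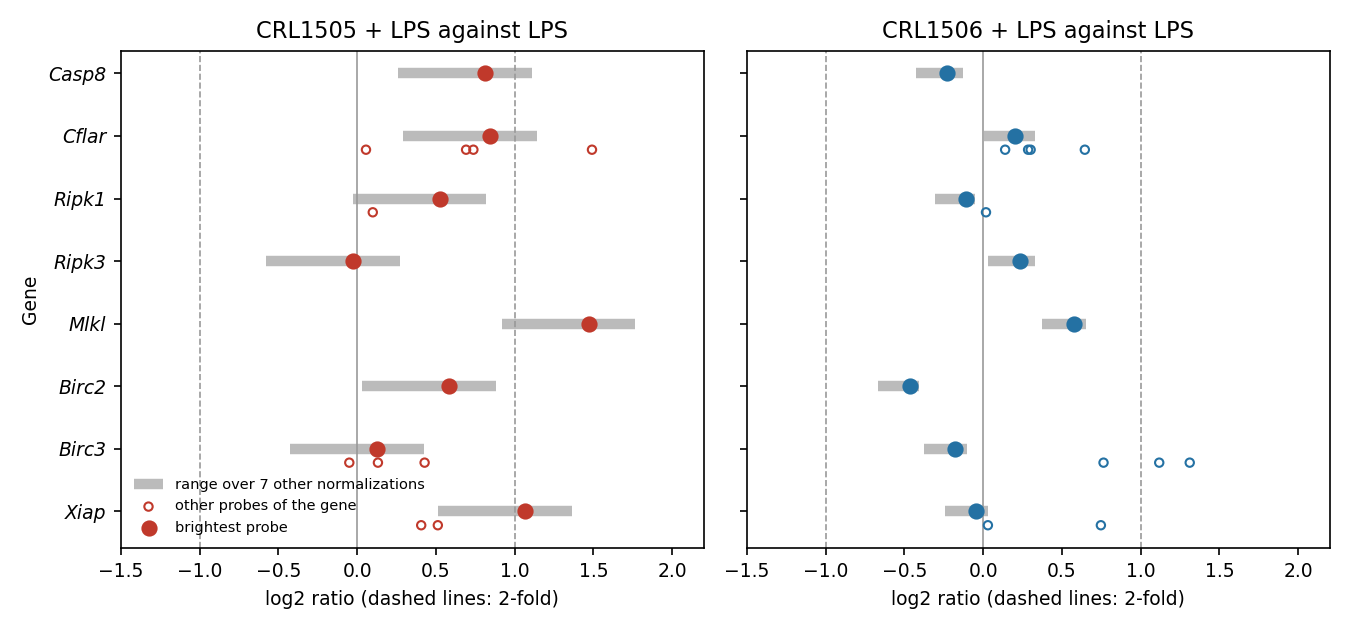
The horizontal axis gives the log2 ratio of each gene to LPS for CRL1505 + LPS (left, red) and CRL1506 + LPS (right, blue). Filled points are the brightest probe, open points the gene's other probes measured on both arrays, grey bars the range over 7 other normalizations and dashed lines 2-fold, and only *Mlkl* at 1.47 and *Xiap* at 1.07 lie past them with their brightest probe.

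The gap between *Birc3* probes was set beside all genes that have both kinds of probe, a comparison chosen after the *Birc3* values were seen. With CRL1506 the log2 ratio of a gene's Ensembl probes minus that of its RefSeq mRNA probes had a median of 0.42 over 1854 genes and was above 0 in 73.8% of them. With CRL1505 the median was 0.03 over 1547 genes, and 52.4% were above 0. Where the Ensembl probe was dim, with a level under 0, the median with CRL1506 was 0.51 over 1542 genes, and where it was at 0 or above it was 0.09 over 312 genes. Between dim and bright RefSeq probes of the same gene the median difference with CRL1506 was 0.06 over 2089 genes. In *Birc3* this difference was 1.24 and in *Xiap* 0.75, where the Ensembl probe at chrX:39425732-39425791 had levels of -1.75, -1.35 and -1.01 on the 3 arrays and a log2 ratio of 0.75, and in *Cflar* it was -0.04. The gap with CRL1506 was thus found mostly where the Ensembl probe was dim, as it was in *Birc3* and *Xiap* but not in *Cflar*, and the cause was not tested.

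**Figure D3:**
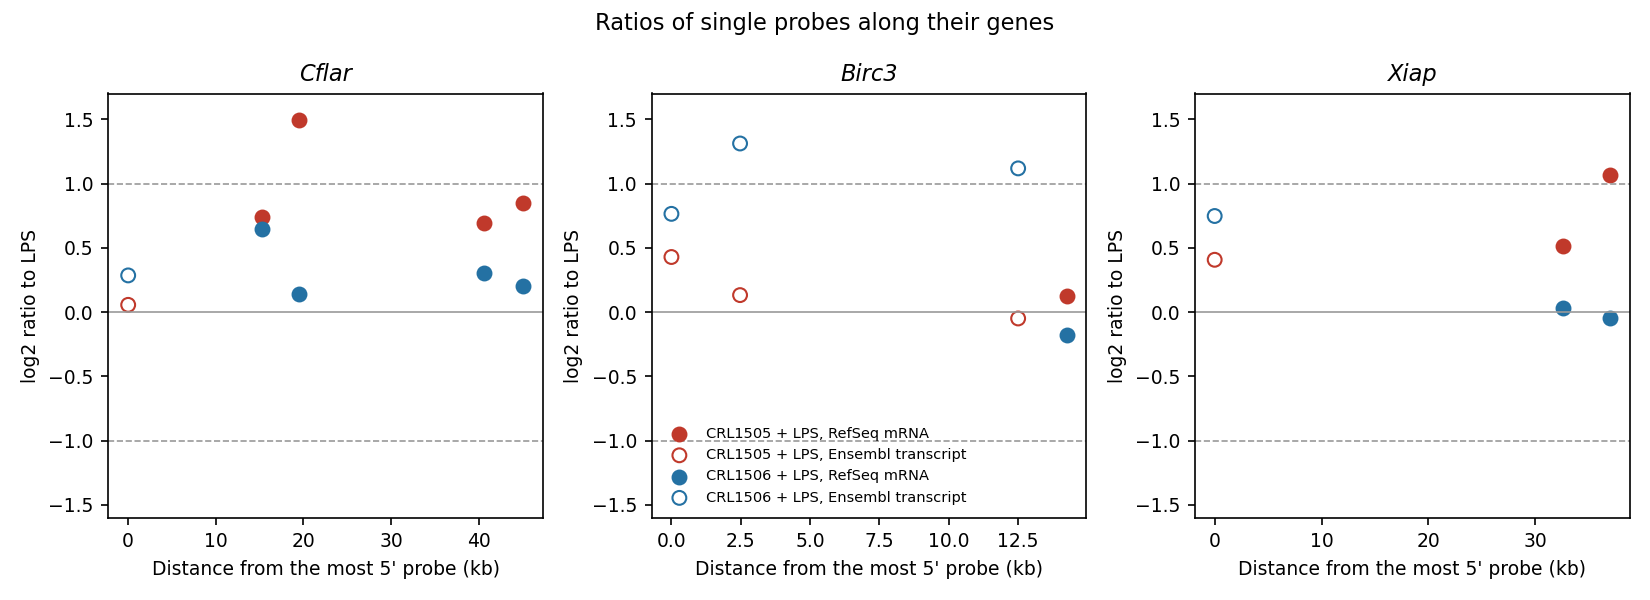
The log2 ratio to LPS (vertical) of each probe of *Cflar*, *Birc3* and *Xiap* is plotted against its distance in kilobases from the gene's most 5′ probe, for CRL1505 + LPS (red) and CRL1506 + LPS (blue). Open points are probes on Ensembl transcripts and filled points probes on RefSeq mRNAs, and the 3 open blue points of *Birc3*, at 0.76, 1.31 and 1.12, lie above the filled one at -0.18.

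Between the strains, 3 of the 8 genes had a level at least 2-fold higher with CRL1505 + LPS than with CRL1506 + LPS, as did 9.02% of 15780 genes, and no member was 2-fold lower, as were 7.47% of all genes. In total 7 of 8 members lay higher with CRL1505 + LPS by their brightest probe, against 51.6% of all genes. For *Birc3*, 1 of these 7, the other 3 probes had differences of -1.17, -1.18 and -0.34, and the mean over probes turned the sign to -0.59. The 3 genes at least 2-fold higher were *Xiap* at a log2 difference of 1.11, *Birc2* at 1.05 and *Casp8* at 1.04. *Mlkl* followed at 0.89, *Cflar* at 0.64, *Ripk1* at 0.63 and *Birc3* at 0.30. The other *Cflar* probes had differences from -0.23 to 1.35, and the second RefSeq probe of *Ripk1* had 0.08. Scaled by spike-in probes, the difference was 0.20 for *Cflar*, 0.19 for *Ripk1* and -0.14 for *Birc3*. The 3 called genes lay close to the 2-fold line. The other probes of *Xiap* had differences of 0.48 and -0.34, and the mean over its probes, 0.42, was under 2-fold. The calls of the 3 genes moved with the scaling, since between 0 and 6 members passed 2-fold under the other normalizations. The 2 arrays also lay on different slides, with separate scans.

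The scaling sets the size of these differences for all genes alike. Scaled by the spike-in probes, RNAs added in known amounts, the members' median log2 ratio for CRL1505 + LPS against LPS was 0.15, no member passed 2-fold and 5 of 8 lay above 0. The median of all genes measured on both arrays was then -0.49, where it was 0.06 with the 75th percentile. Scaled by the array median, the members' median was 0.99 and that of all genes 0.35. Relative to the median of all genes, the members' median lay 0.64 higher with CRL1505, a value that a shift of a whole array cannot change. Under the 4 normalizations that change genes unequally it lay 0.58 to 0.61 higher with CRL1505 and between -0.01 and 0.03 from it with CRL1506.

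The other genes of the pathway were taken as 6 lists of 47 genes in all, by their known roles. With CRL1505 + LPS, 9 of the 44 genes that could be compared were past 2-fold above LPS and 2 past 2-fold below it, or 25.0% in either direction against 18.3% of all genes. The split depended on the scaling, with 11 above and 0 below with a median shift and 3 above and 5 below with spike-ins. With CRL1506 + LPS none of 44 was by its brightest probe, against 9.20% of all genes. The median log2 ratios of the 47-gene set were 0.34 and -0.11, where those of all genes were 0.01 and -0.06. Between the strains 8 of 45 genes were at least 2-fold higher with CRL1505 + LPS, or 17.8% in either direction against 16.5% of all genes.

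Among death ligands and receptors, 3 of 8 compared genes were at least 2-fold higher with CRL1505 and none with CRL1506. *Tnfrsf1b*, the second TNF receptor, had levels of 4.16 with LPS, 5.63 with CRL1505 + LPS and 4.26 with CRL1506 + LPS, and log2 ratios of 1.46 and 0.10. A dimmer probe of *Tnfrsf1b* had levels of -1.01, -0.11 and 0.16 and log2 ratios of 0.89 with CRL1505 and 1.17 with CRL1506, so that the difference between the strains was 1.37 on the first probe and -0.27 on the second. *Tnfsf10*, the death ligand TRAIL, had levels of -0.87, 1.56 and -0.86 and a log2 ratio of 2.43 with CRL1505 on its RefSeq probe, while an Ensembl probe with levels of -1.24, -1.20 and -1.32 had 0.04. *Tnfrsf10b*, the mouse receptor of TRAIL, was well above background with CRL1505 + LPS only, at a signal of 122, which made it at least 5.26-fold higher than with LPS, the dim array being set at its lowest signal well above background. Only 1 of its 3 probes was above background, its spot on that array had uneven pixels, and without uneven spots the call was lost and 10 rather than 11 pathway genes were past 2-fold. *Tnfrsf1a*, the receptor with a death domain that binds TNF, had log2 ratios of 0.95 and -0.19. *Tnf* itself, the brightest gene of this list, had levels of 7.09, 7.24 and 6.70 and log2 ratios of 0.15 and -0.39. *Fas* had levels of 2.62, 2.69 and 1.88 and log2 ratios of 0.07 and -0.74. No array showed *Fasl* or *Tnfrsf25* well above background.

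Of the adapters, *Zbp1* was the only 1 of 5 past 2-fold, and its protein activates RIPK3 through the same RHIM motif that RIPK1 carries. Its levels were 1.25 with LPS, 2.98 with CRL1505 + LPS and 1.66 with CRL1506 + LPS, in the same order as those of *Mlkl*. The log2 ratios were 1.73 with CRL1505, past 2-fold under all 7 other normalizations, and 0.41 with CRL1506. A dimmer RefSeq probe of *Zbp1* had log2 ratios of 1.66 with CRL1505 and 1.18 with CRL1506, so that both probes were past 2-fold with CRL1505. *Ticam1*, which encodes TRIF, had levels of 0.75, 1.04 and 0.79 and log2 ratios of 0.29 and 0.05. *Fadd*, which brings caspase-8 to the receptor, had levels of 0.08, -0.46 and -0.08 and log2 ratios of -0.54 and -0.16. *Tradd* and *Traf2*, adapters of the TNF receptor, had log2 ratios of -0.08 and 0.08 with CRL1505 and of -0.18 and -0.06 with CRL1506. *Traf2* was the brightest of the list, at a level of 4.57 with LPS.

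Of 10 genes for kinases of the TNF receptor complex or their partner subunits, 7 lay above LPS with CRL1505, against 50.7% of all genes. The signs of some of these 7 turned under another normalization. *Tbk1* was at least 2-fold higher, at levels of -0.14, 0.93 and -0.32 and a log2 ratio of 1.07. That ratio was past 2-fold in 3 of the 7 other normalizations and fell as low as 0.52. The brightest of the 10 genes, *Mapkapk2*, encoding a kinase that phosphorylates RIPK1, had log2 ratios of 0.28 and -0.37. Of 7 genes of the linear ubiquitin ligase and the deubiquitinases, *Tnfaip3*, encoding the inhibitor A20, had levels of 3.72, 4.84 and 3.43 and log2 ratios of 1.11 with CRL1505 and -0.29 with CRL1506. Its CRL1505 ratio was past 2-fold in 3 of the 7 other normalizations, with a lowest value of 0.56. *Rbck1*, the brightest of these 7 genes on the LPS and CRL1506 + LPS arrays, had log2 ratios of 0.03 and -0.09.

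Downstream of caspase-8, 1 of 7 genes was past 2-fold above LPS with CRL1505. *Apaf1*, the scaffold of the apoptosome, had levels of -0.76, 0.35 and -1.05 and a log2 ratio of 1.11, and its other 2 probes, both dimmer, had 0.61 and 0.95. The ratio of 1.11 was past 2-fold in 3 of the 7 other normalizations and fell as low as 0.56. With CRL1506 the probes disagreed, the brightest at -0.29 and the others at 0.94 and 2.17, and the difference between the strains was 1.40 on the brightest and -0.34 and -1.21 on the others. *Gsdmd*, encoding the pore-forming protein of pyroptosis and the brightest of this list on the LPS and CRL1506 + LPS arrays, had log2 ratios of 0.49 and 0.07. Among IAP antagonists and other proteins with BIR domains, *Birc5*, which encodes survivin and works in mitosis, had the highest LPS level and was the one at least 2-fold lower with CRL1505. Its levels were 5.54, 4.38 and 5.10 and its log2 ratios -1.16 and -0.44. *Naip2* and *Naip6*, sensors of the inflammasome, had log2 ratios of 1.43 and 1.52 with CRL1505 and of 0.88 and 0.60 with CRL1506. *Naip5*, the brightest of the list on both arrays with lactobacilli, had levels of 5.19, 5.53 and 5.81 and log2 ratios of 0.34 and 0.62. The *Naip* genes are near-identical paralogs, and signal from one may reach the probes of another.

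**Figure D4:**
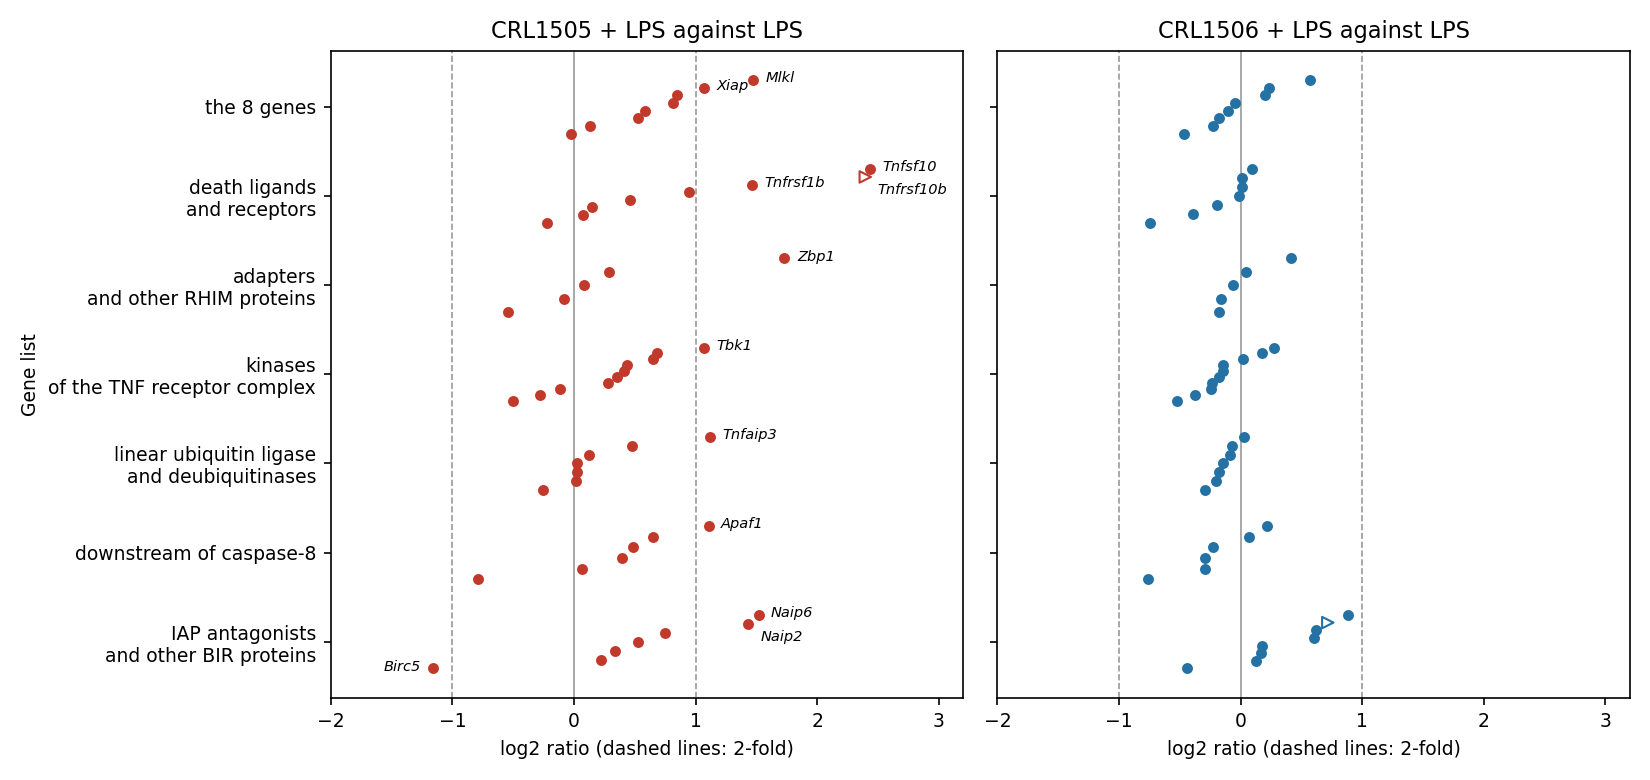
Each point is 1 gene, placed on the horizontal axis by its log2 ratio to LPS for CRL1505 + LPS (left) and CRL1506 + LPS (right) and grouped by list, open triangles being bounds where 1 array was not well above background. Points past 2-fold (dashed lines) are named, 2 of the 8 members and 10 other genes with CRL1505 and none with CRL1506.

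Promoters of the 8 genes were searched for 3 motifs, given 12 promoters of 300 bases in the RefSeq table of build GRCm38.p6, which starts 250 bases before the start site. Each motif was searched on either strand as a single letter pattern, and sites that depart from it were not searched for. The NF-kappaB pattern was in none of the 12 promoters and in 1.63% of all 32851 promoters. Its absence does not exclude other forms of NF-kappaB site in these promoters. The interferon-stimulated response element was in 2 and in 3.44% of all, and the STAT element (GAS) in 1 and in 8.30% of all. The interferon element was in *Cflar*, on the reverse strand from base 7 to base 16 of the transcript, and in 1 of 2 *Ripk1* promoters, across the start site. That *Ripk1* promoter also held the STAT element at 2 places, 1 of which overlaps the interferon element. The matches are in capitals in these stretches, at chr1:58711477-58711510 and chr13:34002746-34002883, both on the plus strand.
Cflar promoter: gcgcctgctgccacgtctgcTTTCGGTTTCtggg
Ripk1 promoter: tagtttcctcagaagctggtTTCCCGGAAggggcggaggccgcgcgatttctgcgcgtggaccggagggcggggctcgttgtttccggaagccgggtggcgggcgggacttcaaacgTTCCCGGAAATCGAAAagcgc
No motif of the 3 was found in the windows of *Mlkl* or *Xiap*, the members past 2-fold with CRL1505, and a match or its absence in these windows is a description of the letters.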

How the data were processed

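RNA of RAW 264.7 cells was measured on 3 arrays, 1 for each condition. Per the file headers, each deposited array file came from Feature Extraction 12.0.3.1, whose processed signal is an intensity with the local background subtracted, and a table of log2 values normalized between arrays, used as an alternative. The submitters' processing notes name limma. Control spots and spots marked as outliers were left out (241 to 467 per array), and 48.5% to 55.3% of gene spots were well above background. Signals were divided by the 75th percentile of gene spots of the array and taken as log2, repeated spots were averaged, and the brightest probe stood for a gene. A ratio with 1 array not well above background was kept as a bound. Python 3.11.15, pandas 2.3.3, NumPy 2.4.6, R 4.3.3 and limma 3.58.1 were used. The steps were tested on simulated data with noise like that of repeated spots. Disagreement between probes of a gene was not simulated. The number of arrays limits the precision.

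Differences of at least 2-fold were counted without a test. Named genes were all 8 members, pathway genes past 2-fold with either strain, the brightest gene of each list, and *Tnf*, *Fas*, *Fadd*, *Tradd*, *Traf2*, *Ticam1* and *Zbp1*. Members and lists were chosen with earlier results of these data known. In total 14 alternatives were run. Positions of probes are in mm9 as in the array files, promoters are from RefSeq (GRCm38.p6), and protein sequences were not analysed here. The values of 1 pathway gene, which the counts of the lists include, are not reported or drawn here.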

Additional observations from a re-analysis of the deposited data

Results flagged for a closer look

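*Casp8* and *Birc2* lay above LPS with CRL1505 and below it with CRL1506. The log2 ratios were 0.81 and -0.23 for *Casp8* and 0.58 and -0.47 for *Birc2*, each from 1 array. The same signs were seen on the brightest probes of *Ripk1* (0.52 and -0.11), *Birc3* (0.13 and -0.18) and *Xiap* (1.07 and -0.04). Scaled by the spike-ins, the CRL1505 ratios were 0.26 for *Casp8* and 0.03 for *Birc2*. The difference between the strains was not tested, and the strain cannot be told apart from the slide and scan of its array.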

How the results depend on the processing

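No paired analysis was possible because there was 1 array for each condition, and no array could be left out. Of 288 log2 ratios of single members under alternatives, 108 were identical because the alternative left the gene's probe untouched. Of the other 180, 142 moved by less than the SD between probes and 38 by more, and none past 2-fold changed sign. For CRL1505 + LPS against LPS, 2 members were past 2-fold, against 4 with a median shift, 1 with the 75th percentile of probes well above background on all arrays, 0 with spike-ins, 1 each with quantile normalization, normexp, the deposited table and the mean over probes, 4 at 1.5-fold and 0 at 4-fold. For CRL1505 + LPS against CRL1506 + LPS, 3 were, against 6 with a median shift, 0 with the 75th percentile of probes well above background on all arrays and with spike-ins, 1 each with quantile, cyclic loess, normexp and the deposited table, 6 at 1.5-fold and 0 at 4-fold. For CRL1506 + LPS against LPS the members' count was 0 under all alternatives. Of pathway genes, 11 were past 2-fold with CRL1505 against LPS (9 higher, 2 lower), with 11 higher and 0 lower under a median shift and 3 higher and 5 lower with spike-ins. Their number was 7 with normexp and the deposited table, 17 at 1.5-fold and 2 at 4-fold. With CRL1506 there were 0, against 1 without a filter on dim probes and 6 at 1.5-fold. Between the strains there were 8, all higher with CRL1505, against 19 with a median shift, 4 with spike-ins (2 higher, 2 lower), 4 with the mean over probes, 18 at 1.5-fold and 2 at 4-fold. Signals near background limit the dim probes.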
